A study of Caenorhabditis elegans with 9 samples.

Results

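The 8 genes described here encode the core enzymes of peroxisomal beta-oxidation in *C. elegans*, the route that trims the side chains of ascarosides: the acyl-CoA oxidases *acox-1.1*, *acox-1.2*, *acox-1.3*, *acox-1.4* and *acox-3*, the enoyl-CoA hydratase *maoc-1*, the hydroxyacyl-CoA dehydrogenase *dhs-28* and the thiolase *daf-22*. They were chosen by gene name, and each name matched a single gene among the 46739 genes of the count table, so that 8 of 46739 genes are members. All 8 were among the 16817 genes that had more than 5 reads in more than 3 libraries and were tested.

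mRNA was sequenced from wild-type N2 worms on *cco-1* RNAi, on *his-3* RNAi or on the empty vector (EV), with 3 libraries per group. For its qRT-PCR assays of these treatments the paper describes bleach-synchronized worms, put on the RNAi plates at the L1 stage and harvested as L4 larvae. Its section on RNA sequencing does not state how the worms were staged. Stranded libraries of polyadenylated RNA were sequenced on a single lane. *cco-1* encodes a subunit of mitochondrial complex IV and *his-3* a histone H2A, so that the comparisons with EV ask how gene expression responds to mitochondrial and to histone stress. RNAi by feeding acts on the whole animal, the libraries were made from whole worms, and nothing in the labels says that the replicates came from separate cultures, so the p-values measure the spread between these libraries, which may be technical.

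Ascarosides are glycolipids built on the sugar ascarylose, and worms use them as pheromones for dauer formation, mating and aggregation. Their long side chains are shortened in the peroxisome by repeated rounds of beta-oxidation. In each round an acyl-CoA oxidase introduces a double bond, MAOC-1 adds water to it, DHS-28 oxidizes the product, and DAF-22 splits off acetyl-CoA. Which acyl-CoA oxidase dimer does the first step sets which side chain can be shortened, and worms lacking *daf-22* do not make the short-chain dauer pheromones.

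The libraries held 25129763 to 32017517 reads on genes (median 28051414). Reads that aligned to several places were not counted. The counting tool's tally of such alignments was between 6.30 and 7.27% of all that it tallied in a library. *cco-1*, listed in the annotation as *cox-5B*, had a normalized count of 4713 ± 209 on *cco-1* RNAi, 9435 ± 187 on *his-3* RNAi and 12650 ± 125 on EV (SD, n = 3 each). *his-3* had 17.7 ± 4.49 on *cco-1* RNAi, 109 ± 10 on *his-3* RNAi and 174.9 ± 5.33 on EV, so it was lower on its own RNAi but lowest on *cco-1* RNAi. *his-3* has near-identical copies, and replication-dependent histone mRNAs mostly lack a poly(A) tail, so its count is uncertain. Here a normalized count is a count scaled by edgeR's TMM method to a library of average size, a change is a log2 fold change from edgeR's quasi-likelihood test, and a gene is called when its Benjamini-Hochberg adjusted p over all genes tested is under 0.05.

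*acox-1.1* to *acox-1.4* lie head to tail on the plus strand of chromosome I in WBcel235, and no other gene of the table lies in the gaps between them. *acox-1.1* spans positions 12938555 to 12942227, *acox-1.2* 12942280 to 12946588, *acox-1.3* 12946932 to 12951099 and *acox-1.4* 12951134 to 12954003, with gaps of only 52, 343 and 34 bases between neighbours. The other members are apart from them: *acox-3* on chromosome IV (6245358 to 6248492, minus strand), *maoc-1* on chromosome II (7196276 to 7197495, plus strand), *daf-22* also on chromosome II (12423518 to 12425694, minus strand) and *dhs-28* on the X chromosome (6818438 to 6820080, plus strand). Exons of *acox-1.4*, *maoc-1* and *dhs-28* overlap a gene on the opposite strand by 35, 105 and 76 bases. The strand setting of the counting is not given in the sources used here, so reads from these stretches cannot be assigned with certainty, and the 4 clustered genes are paralogs whose shared reads, if any, would be among those left uncounted.

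On *cco-1* RNAi the pathway did not move as 1 block. The acyl-CoA oxidase genes *acox-1.2* and *acox-1.4* fell 7.15-fold and 2.86-fold relative to EV, the thiolase gene *daf-22* fell 1.41-fold, and the hydratase gene *maoc-1* rose 1.54-fold. The other 4 members were not called under TMM, but with intestine scaling, which sets the libraries to 9 intestine markers and was chosen after seeing the data, *acox-1.1* (-0.29), *acox-1.3* (-0.37), *acox-3* (-0.40) and *dhs-28* (-0.36) were called lower as well. A change of scaling moves all genes of a comparison by nearly the same amount. With intestine scaling, 3219 of the 16817 genes tested were called higher and 8705 lower. Under TMM, 1 member was higher and 3 were lower. Of all genes tested, 34.9% were called higher under TMM and 35.9% lower, 70.8% in either direction. The median log2 fold change of the members was -0.10, beside 0.01 over all genes tested.

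On *his-3* RNAi all 8 members were lower than on EV, by 1.28-fold for *acox-3* to 5.74-fold for *acox-1.4*, although with intestine scaling 4 members were called lower, *acox-3* was called higher (0.31), and *maoc-1* (-0.13), *daf-22* (-0.00063) and *dhs-28* (0.0048) were not called. With that scaling, 95.3% of all genes called were higher. Under TMM, 26.9% of all genes tested were called higher and 27.9% lower, 54.8% in either direction. The median was -0.80 for the members and 0.02 for all genes tested. In the direct comparison under TMM, 7 members were higher on *cco-1* RNAi than on *his-3* RNAi and 1, *acox-1.2*, was lower. Of all genes, 31.8% were called higher there and 36.8% lower, 68.6% in either direction. Intestine scaling turned the sign of *acox-1.1*, *acox-3*, *dhs-28* and *daf-22*, and with it 6.63% of all genes called were higher. The comparisons with EV share the 3 EV libraries, so their values are given side by side.

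**Figure D1:**
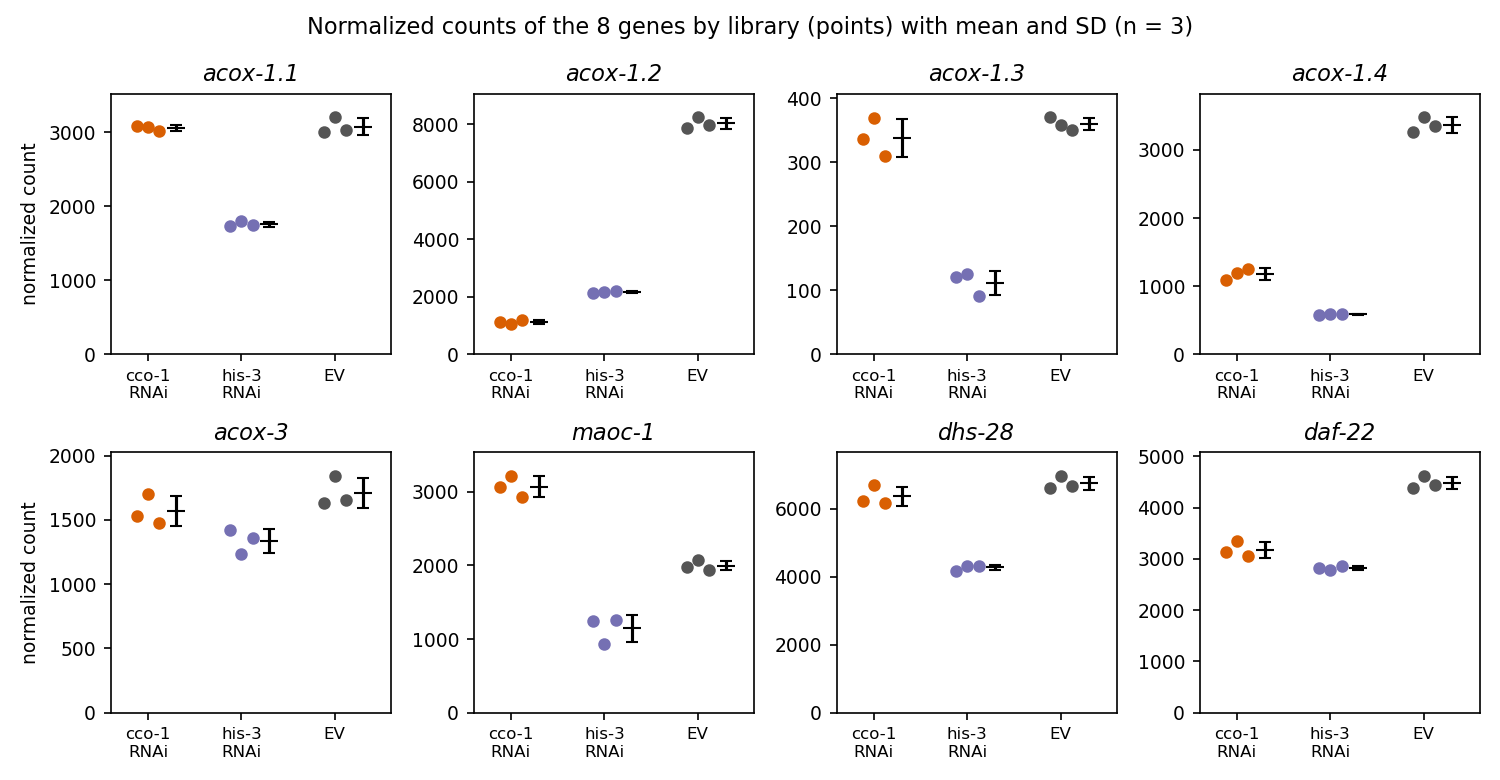
Normalized counts of the 8 genes (y axis, linear from 0, own scale in each panel) in the 3 libraries of each group (points), with the mean and SD beside them. *acox-1.2* and *acox-1.4* are far lower on both RNAi treatments than on EV, *maoc-1* is highest on *cco-1* RNAi, and under TMM scaling the *his-3* RNAi points lie below all EV points in every panel.

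The first step of each round is catalysed by the acyl-CoA oxidases, and of the members *acox-1.2* had the largest change on *cco-1* RNAi. ACOX-1.2 acts as a homodimer on ascarosides with short side chains attached at the terminal carbon. Its normalized count was 1124, 1061 and 1183 in the *cco-1* RNAi libraries and 2132, 2155 and 2206 in the *his-3* RNAi libraries, against 7860, 8240 and 7969 in the EV libraries. The 3 groups did not overlap, and all 6 RNAi libraries lay below the lowest EV library. The log2 fold change against EV was -2.84 ± 0.0479 on *cco-1* RNAi (SE, edgeR adjusted p = 1.95e-17) and -1.89 ± 0.045 on *his-3* RNAi (SE, edgeR adjusted p = 6.19e-15). It was the only member lower on *cco-1* RNAi than on *his-3* RNAi (-0.95 ± 0.0479, SE, edgeR adjusted p = 1.99e-11). By the size of its change it ranked 1132 of 16817 genes on *cco-1* RNAi.

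*acox-1.4*, the last gene of the cluster, also fell on both treatments, but further on *his-3* RNAi. Its normalized count was 1086, 1187 and 1255 on *cco-1* RNAi and 581.8, 585 and 592 on *his-3* RNAi, against 3256, 3480 and 3356 on EV. Again the groups did not overlap, and the order of the treatments was opposite to that of *acox-1.2*. The log2 fold change against EV was -1.52 ± 0.0509 on *cco-1* RNAi (SE, edgeR adjusted p = 7.59e-14) and -2.52 ± 0.0542 on *his-3* RNAi (SE, edgeR adjusted p = 1.69e-15), and *cco-1* RNAi exceeded *his-3* RNAi by 1.0 ± 0.057 (SE, edgeR adjusted p = 9.22e-11), which shrank to 0.062 and was not called with intestine scaling. The study's methods also ask for a log2 fold change of 2 or more in either direction. *acox-1.2* was the only member past it on *cco-1* RNAi, where 10.9% of all genes tested were, and *acox-1.4* the only one on *his-3* RNAi, where 3.95% were. In the direct comparison 0 members were past it by edgeR, against 9.07% of all genes, although all 8 had an unadjusted and an adjusted p under 0.05.

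*acox-1.1* and *acox-1.3* encode the subunits of a heterodimer that shortens ascaroside side chains further than the ACOX-1.1 homodimer does. *acox-1.1* had 3082, 3077 and 3016 normalized counts on *cco-1* RNAi and 1733, 1795 and 1750 on *his-3* RNAi, against 2999, 3205 and 3029 on EV. The *cco-1* RNAi libraries overlapped EV, with a log2 fold change of -0.01 and a 95% interval of -0.09 to 0.08, while all *his-3* RNAi libraries were lower (-0.81 ± 0.0415, SE, edgeR adjusted p = 7.13e-11). When *act-1* and *pmp-3* set the scale, the value on *cco-1* RNAi was 0.16 and was called (edgeR adjusted p = 0.0184). *acox-1.3*, the member with the lowest level, had 335.6, 368.4 and 309.9 normalized counts on *cco-1* RNAi and 119.9, 125.1 and 90.64 on *his-3* RNAi, against 370.1, 357.9 and 350.2 on EV. It followed the pattern of its partner with a larger drop on *his-3* RNAi (-1.68 ± 0.107, SE, edgeR adjusted p = 1.12e-09), and on *cco-1* RNAi its interval ran from -0.28 to 0.11. Both genes were higher on *cco-1* RNAi than on *his-3* RNAi, by 0.80 for *acox-1.1* and 1.6 for *acox-1.3*. Intestine scaling, which moves all genes by nearly the same amount, turned the sign of the smaller value, that of *acox-1.1* (-0.15).

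*acox-3*, the oxidase gene outside the cluster, had the smallest change of the members on *his-3* RNAi under TMM. It had 1530, 1704 and 1479 normalized counts on *cco-1* RNAi and 1418, 1237 and 1358 on *his-3* RNAi, against 1630, 1844 and 1656 on EV. The *cco-1* RNAi libraries overlapped EV (-0.12, 95% interval -0.26 to 0.02), and the *his-3* RNAi libraries were all below it (-0.35 ± 0.0646, SE, edgeR adjusted p = 0.000202). That call was lost when libraries were scaled by size only (-0.13) or by *act-1* and *pmp-3* (-0.061), and the sign turned with intestine scaling (0.31).

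The later steps of the round are shared by all side chains, and their genes did not move together on *cco-1* RNAi. *maoc-1* had 3058, 3215 and 2931 normalized counts on *cco-1* RNAi and 1248, 933.6 and 1253 on *his-3* RNAi, against 1982, 2068 and 1941 on EV. It was the only member above EV in all *cco-1* RNAi libraries (0.62 ± 0.0777, SE, edgeR adjusted p = 2.18e-06) and lay below EV in all *his-3* RNAi libraries (-0.80 ± 0.0818, SE, edgeR adjusted p = 3.77e-07), though with intestine scaling the value on *his-3* RNAi was -0.13 and was not called. The treatments differed by 1.42 ± 0.0806 (SE, edgeR adjusted p = 8.93e-11).

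*dhs-28* had 6224, 6698 and 6181 normalized counts on *cco-1* RNAi and 4186, 4330 and 4317 on *his-3* RNAi, against 6608, 6978 and 6662 on EV. The *cco-1* RNAi and EV libraries overlapped (-0.08, 95% interval -0.18 to 0.01), and those on *his-3* RNAi were lower (-0.66 ± 0.0452, SE, edgeR adjusted p = 2.97e-09). Without *cco-1* RNAi replicate 2, both *dhs-28* (-0.12, edgeR adjusted p = 0.0335) and *acox-3* (-0.18, edgeR adjusted p = 0.0222) were called lower on *cco-1* RNAi, which brought the members called there to 6. *daf-22*, whose product ends each round, had 3133, 3348 and 3056 normalized counts on *cco-1* RNAi and 2828, 2786 and 2871 on *his-3* RNAi, against 4386, 4624 and 4437 on EV. It fell by 0.50 on *cco-1* RNAi (SE 0.044, edgeR adjusted p = 3.22e-08) and by 0.66 on *his-3* RNAi (SE 0.044, edgeR adjusted p = 1.88e-09), with no overlap between groups. With intestine scaling the value of *daf-22* on *his-3* RNAi was -0.00063.

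**Figure D2:**
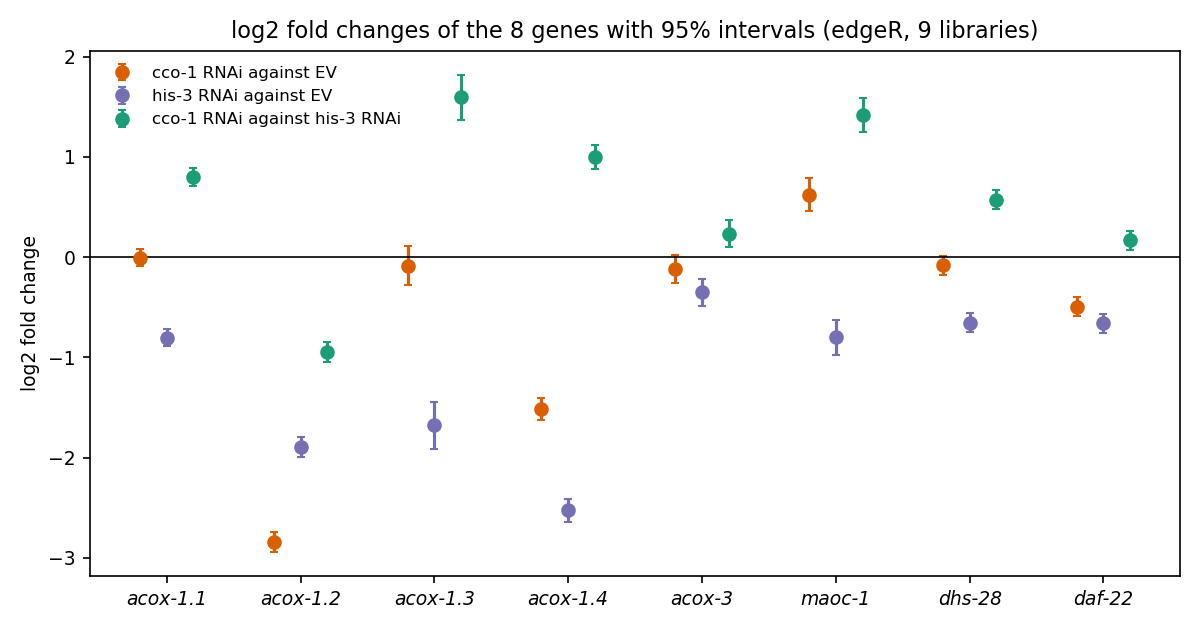
log2 fold changes of the 8 genes (y axis) with 95% intervals from edgeR on TMM-scaled counts, for *cco-1* RNAi against EV, *his-3* RNAi against EV and *cco-1* RNAi against *his-3* RNAi. The *cco-1* RNAi values range from -2.84 for *acox-1.2* to 0.62 for *maoc-1*, while the *his-3* RNAi values are all below 0 under this scaling and were above 0 for *acox-3* and *dhs-28* with intestine scaling.

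Non-overlap of the libraries gave the same 4 members on *cco-1* RNAi and all 8 on *his-3* RNAi, and over all genes tested the libraries did not overlap for 75.7% and 60.0%. In the direct comparison, libraries of all 8 members did not overlap, as for 71.2% of all genes. Summed over the members, normalized counts were 19410 to 20660 on *cco-1* RNAi and 13950 to 14440 on *his-3* RNAi, against 29090 to 30800 on EV.

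Levels were compared between genes as normalized counts per kilobase of exon. *dhs-28* was highest in each group, with 4519 ± 204 on *cco-1* RNAi, 3036 ± 56.3 on *his-3* RNAi and 4790 ± 142 on EV (SD, n = 3 each), and *acox-1.3* was lowest, with 160.5 ± 13.9, 53.13 ± 8.82 and 170.7 ± 4.77 in the same groups. The ranks between them changed. On *cco-1* RNAi the order was *dhs-28*, *maoc-1*, *daf-22*, *acox-1.1*, *acox-3*, *acox-1.4*, *acox-1.2* and *acox-1.3*, and the libraries of *acox-1.4* (568.1 ± 41.3) and *acox-1.2* (541.9 ± 29.3) overlapped. On *his-3* RNAi it was *dhs-28*, *daf-22*, *maoc-1*, *acox-1.2*, *acox-1.1*, *acox-3*, *acox-1.4* and *acox-1.3*, with overlap between *maoc-1* (1077 ± 172) and *acox-1.2* (1045 ± 18.3) and between *acox-1.1* (698.6 ± 12.7) and *acox-3* (649.9 ± 44.7). On EV it was *dhs-28*, *acox-1.2*, *daf-22*, *maoc-1*, *acox-1.4*, *acox-1.1*, *acox-3* and *acox-1.3*, and no neighbours overlapped. *acox-1.2*, just below *dhs-28* on EV (3872 ± 94.5), was thus above only *acox-1.3* on *cco-1* RNAi.

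The makeup of the clustered oxidases was taken as shares of their summed level per kilobase. The shares of *acox-1.1* and *acox-1.2* did not overlap between any of the groups. The sum of the clustered oxidases was 2450 to 2522 on *cco-1* RNAi and 2055 to 2095 on *his-3* RNAi, against 6733 to 7100 on EV. *acox-1.1* made up 48.9 ± 1.26% of it on *cco-1* RNAi and 33.6 ± 0.39% on *his-3* RNAi, against 17.7 ± 0.169% on EV (SD, n = 3 each). *acox-1.2* made up 21.8 ± 1.04% on *cco-1* RNAi and 50.2 ± 0.68% on *his-3* RNAi, against 56.2 ± 0.171% on EV. So *acox-1.1* was the largest component on *cco-1* RNAi, and *acox-1.2* on *his-3* RNAi and EV. *acox-1.4* took 22.9 ± 1.34% on *cco-1* RNAi and 13.6 ± 0.112% on *his-3* RNAi, against 23.6 ± 0.193% on EV. Its *cco-1* RNAi and EV libraries overlapped. *acox-1.3* took 6.46 ± 0.607% on *cco-1* RNAi and 2.56 ± 0.43% on *his-3* RNAi, against 2.48 ± 0.115% on EV. Here the *his-3* RNAi and EV libraries overlapped. Shares are ratios within a library and do not depend on the scaling between libraries. They were not tested.

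**Figure D3:**
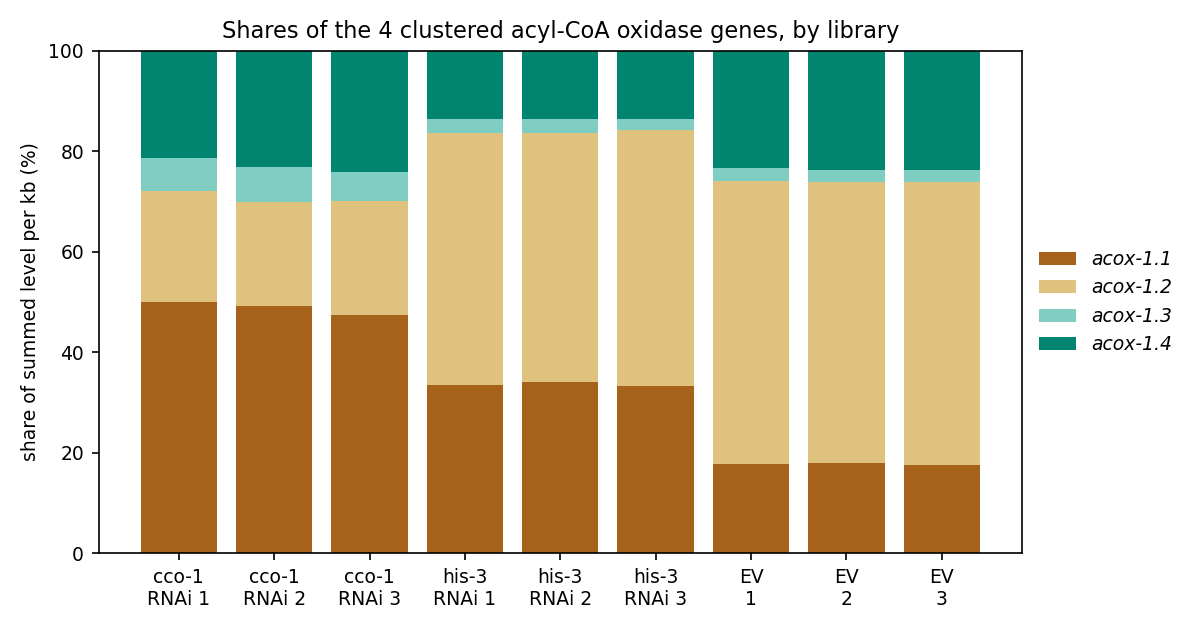
Share (y axis, percent) of each of the 4 clustered acyl-CoA oxidase genes in their summed normalized count per kilobase, by library (bars). The *acox-1.1* share is 47.5 to 49.9% on *cco-1* RNAi, 33.3 to 34.0% on *his-3* RNAi and 17.6 to 17.9% on EV.

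The ratios between members, also free of scaling, show the same shifts. *acox-1.2* per kilobase was 0.447 ± 0.0288 times *acox-1.1* on *cco-1* RNAi and 1.5 ± 0.0366 times on *his-3* RNAi, against 3.17 ± 0.0388 times on EV (SD, n = 3 each). *maoc-1* was 0.639 ± 0.0116 times *dhs-28* on *cco-1* RNAi and 0.355 ± 0.0603 times on *his-3* RNAi, against 0.392 ± 0.00572 times on EV. *dhs-28* was 1.90 ± 0.0172 times *daf-22* on *cco-1* RNAi and 1.43 ± 0.0356 times on *his-3* RNAi, against 1.42 ± 0.00365 times on EV. For the ratios to and from *dhs-28* the *his-3* RNAi libraries overlapped EV and the *cco-1* RNAi libraries lay above all others.

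The likeness of profiles was measured as the root mean square difference of the 9 log2 normalized counts after centring each gene on its EV mean. Among the members, *acox-1.1* and *dhs-28* were nearest to each other (0.10) and *acox-1.2* and *maoc-1* farthest apart (2.09). *acox-1.2* had no close counterpart among the members, the nearest being *acox-1.4* (0.846). Over all genes with a symbol, the nearest to *acox-1.2* were *T11B7.2* (0.129), *T05E12.6* (0.145) and *ttr-44* (0.191), and the nearest to *acox-1.4* were the aspartyl protease gene *asp-13* (0.0921), the acid phosphatase gene *pho-13* (0.111) and the cytochrome P450 gene *cyp-34A9* (0.155). For *maoc-1* they were *M04C9.3* (0.0545), *sptl-1* (0.101), a subunit of serine palmitoyltransferase, and *tdc-1* (0.102), which encodes tyrosine decarboxylase. For *daf-22* they were *unc-87* (0.0316), *cth-2* (0.0445) and *unc-27* (0.0473), for *dhs-28* *gad-3* (0.0276), *mrpl-20* (0.0441) and *hum-8* (0.0466), and for *acox-1.1* *mrpl-39* (0.0546), *dhs-30* (0.0647) and *cox-6C* (0.0689). *acox-1.3* was nearest to *flr-1* (0.157), *ttr-49* (0.169) and *ugt-46* (0.174), and *acox-3* to *fut-6* (0.046), *C16C10.2* (0.0544) and *F25H2.4* (0.0563).

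The PMP family of ABC transporters includes carriers of substrates into the peroxisome. What *pmp-5* carries was not examined here, and its mRNA had a change like that of *acox-1.2*. Its normalized count was 706, 749.8 and 696.9 on *cco-1* RNAi and 1288, 1260 and 1427 on *his-3* RNAi, against 6216, 6062 and 5916 on EV. Its groups did not overlap, and its log2 fold change was -3.08 on *cco-1* RNAi (edgeR adjusted p = 2.61e-17) and -2.19 on *his-3* RNAi (edgeR adjusted p = 3.68e-15). Per kilobase, *acox-1.2* was 1.78 ± 0.162 times *pmp-5* on *cco-1* RNAi and 1.86 ± 0.0945 times on *his-3* RNAi, against 1.5 ± 0.0586 times on EV. Of the 5 transporter genes, 2 were higher and 2 lower on *cco-1* RNAi, where intestine scaling left 3 called, all lower, and 4 were lower on *his-3* RNAi, where it gave 2 higher and 2 lower. *pmp-4* was lower on both (-1.03 and -0.42). *pmp-1* was higher on *cco-1* RNAi (0.35) and lower on *his-3* RNAi (-0.98), *pmp-2* was lower on *his-3* RNAi (-0.77), and *pmp-3* was slightly higher on *cco-1* RNAi (0.14).

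A list of 8 other genes held mostly oxidase and side-chain enzyme genes, and also *glo-1*, which is not one of these. Of the 8, 4 were higher and 3 lower on *cco-1* RNAi, where *glo-1* (-0.10) was not called. On *his-3* RNAi 1 was higher and 6 lower, *glo-1* (-0.27) among them, and intestine scaling gave 4 higher and 3 lower there. *acox-1.6*, another acyl-CoA oxidase gene, was lower on both treatments (-1.38 on *cco-1* RNAi and -0.92 on *his-3* RNAi), as were *acs-7*, an acyl-CoA synthetase gene of modular ascarosides (-0.87 and -1.09), and *nlt-1*, which encodes a sterol carrier-like protein (-0.22 and -1.07). *ech-9*, an enoyl-CoA hydratase gene of low level, had 46.04, 55.91 and 46.54 normalized counts on *cco-1* RNAi and 198.6, 124.2 and 150.1 on *his-3* RNAi, against 13.48, 12.15 and 15.14 on EV. It was, under TMM, the one gene of the list called higher on both treatments, by log2 1.85 on *cco-1* RNAi and 3.52 on *his-3* RNAi. On *his-3* RNAi, 2 genes of the list were called higher with upper quartile factors, with library size only and with *act-1* and *pmp-3*. *acox-1.5* (0.46), *ech-8* (0.67) and *dhs-18* (0.71) were higher on *cco-1* RNAi. Under TMM, *ech-8* (-0.39) and *dhs-18* (-0.79) were lower on *his-3* RNAi, and *acox-1.5* (0.12) was not called there.

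Carboxylesterases attach further groups to ascarosides, and 6 of their genes were tested. On *his-3* RNAi all 6 were lower (median -1.63), and 5 of them also with intestine scaling. On *cco-1* RNAi 2 were higher and 4 lower (median -0.56). *cest-3* had 73.67, 91.85 and 66.97 normalized counts on *cco-1* RNAi and 41.22, 29.43 and 28.32 on *his-3* RNAi, against 495.6, 520.3 and 508.3 on EV. It was lower in all RNAi libraries, with log2 fold changes of -2.70 on *cco-1* RNAi (edgeR adjusted p = 9.35e-13) and -3.94 on *his-3* RNAi (edgeR adjusted p = 1.72e-13). *cest-1.1* went opposite ways, with 711.1, 619 and 609.5 normalized counts on *cco-1* RNAi and 32.79, 30.35 and 26.44 on *his-3* RNAi, against 200.1, 227.6 and 202.5 on EV. Its log2 fold changes were 1.62 on *cco-1* RNAi and -2.81 on *his-3* RNAi, and the treatments differed by 4.43 (edgeR adjusted p = 4.06e-15). *cest-8* (0.87 and -1.39) had the same directions, and *cest-9.2* (-1.57 and -1.87), *cest-4* (-0.47 and -1.25) and *cest-2.2* (-0.64 and -0.82) were lower on both.

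Peroxins import proteins into the peroxisome and assemble it. Of 11 genes, 6 were higher on *cco-1* RNAi and 5 were not called (median 0.26), while 1 was higher and 6 lower on *his-3* RNAi (median -0.17). Intestine scaling turned both medians, to -0.02 on *cco-1* RNAi and 0.49 on *his-3* RNAi, and on *his-3* RNAi the median also turned with library size only (0.05) and with *act-1* and *pmp-3* (0.12). *prx-19*, which encodes the import receptor for peroxisomal membrane proteins, had 5001, 4461 and 4845 normalized counts on *cco-1* RNAi and 2141, 1958 and 2009 on *his-3* RNAi, against 2319, 2099 and 2187 on EV. It was higher in all *cco-1* RNAi libraries (1.11, edgeR adjusted p = 8.55e-12), and the *his-3* RNAi and EV libraries overlapped (-0.11). *prx-11* was higher on both (1.06 and 0.31), *prx-1* was higher on *cco-1* RNAi (0.67), and *prx-3* was lower on *his-3* RNAi (-0.66). Of the 3 catalase genes, *ctl-2*, whose product is the peroxisomal enzyme, was lower on both treatments (-0.50 and -0.75, the value on *his-3* RNAi not called lower with intestine scaling), *ctl-3* was higher on *cco-1* RNAi (0.35), and *ctl-1* was not called (0.09 and -0.35).

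**Figure D4:**
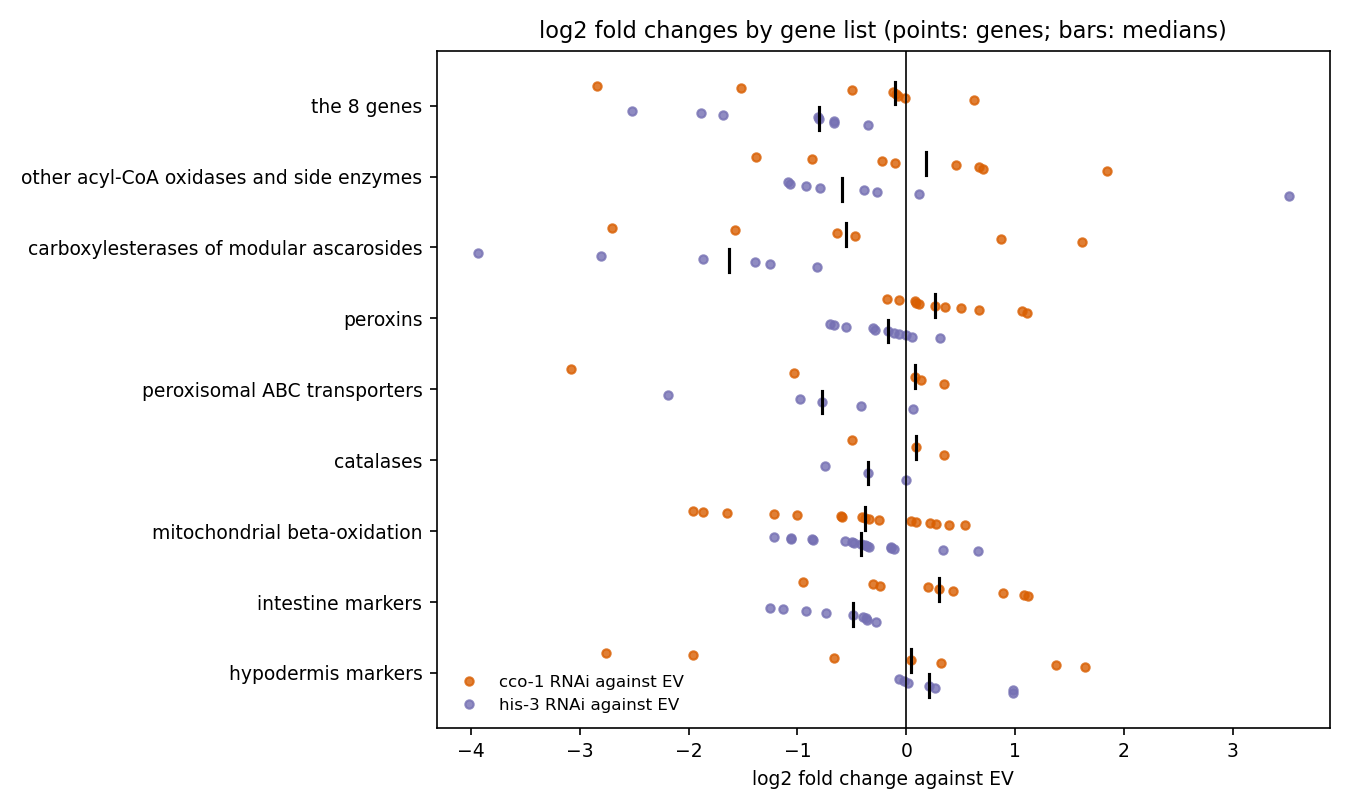
log2 fold change against EV (x axis) of each gene (points) in the named lists (rows), for *cco-1* RNAi (upper points of a row) and *his-3* RNAi (lower points), with the median as a bar. The 8 genes have medians of -0.10 and -0.80, and the 6 carboxylesterase genes of -0.56 and -1.63, all from TMM-scaled counts.

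Beta-oxidation also runs in mitochondria. Of 17 genes of that route, 4 were higher and 11 lower on *cco-1* RNAi (median -0.38), and 2 were higher and 13 lower on *his-3* RNAi (median -0.42), where intestine scaling gave 11 higher and 4 lower. *kat-1* (0.54), *acaa-2* (0.39), *acdh-13* (0.27) and *cpt-6* (0.22) were the 4 higher on *cco-1* RNAi. The carnitine palmitoyltransferase genes *cpt-4* (-1.65 on *cco-1* RNAi and 0.66 on *his-3* RNAi) and *cpt-1* (-0.60 and 0.34) were the 2 higher on *his-3* RNAi. *ech-1.1* (-1.87 and -1.06), *cpt-5* (-1.22 and -0.86) and the enoyl-CoA hydratase gene *ech-6* (-0.25 and -1.06) were lower on both.

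On the receiving side, few genes could be read. The receptor list held 9 genes, those of ascaroside receptors and *dcar-1*, whose product is known as a receptor of dihydrocaffeic acid, which is not an ascaroside. Only *daf-37*, *daf-38* and *dcar-1* had enough reads to be tested, and the other 6 had at most 8 reads in any library. On *cco-1* RNAi *dcar-1* (-0.69) and *daf-37* (-0.25) were lower. On *his-3* RNAi 0 of the 3 were called by edgeR, limma-voom or DESeq2, and 0 had an unadjusted p under 0.05, but 2 were called higher with library size only. *daf-7* and *daf-28*, which respond to pheromone in sensory neurons, were called in neither comparison with EV by these tools, and 0 of them had an unadjusted p under 0.05, but 1 was called higher on *his-3* RNAi with library size only.

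Ascaroside enzymes are known from the intestine and hypodermis, and in whole worms fewer cells of a type and less RNA per cell cannot be told apart. All 9 intestine markers were detected. On *cco-1* RNAi 6 were higher and 3 lower, with a median of 0.30. Their summed normalized count was 223600 to 226800 on *cco-1* RNAi against 120300 to 131700 on EV. Much of that sum was *asp-1*, with a mean of 104300 on *cco-1* RNAi and 48130 on EV. On *his-3* RNAi all 9 were lower, with a sum of 80990 to 96480, though 5 were called lower with *act-1* and *pmp-3*. The markers and the 8 genes thus moved the same way on *his-3* RNAi under TMM (marker median -0.49), and on *cco-1* RNAi *asp-1* (1.12) and *vha-6* (1.08) were higher while *acox-1.2* and *acox-1.4* were lower. *pept-1* (-0.31), *elt-2* (-0.24) and *elt-7* (-0.95) were the 3 lower there, and *ges-1* was higher (0.43).

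Of 7 hypodermis markers, *elt-3* (1.64), *dpy-7* (1.38) and *nhr-25* (0.32) were higher and *rol-6* (-2.76), *che-14* (-1.96) and *lin-26* (-0.66) lower on *cco-1* RNAi, and *elt-3* (0.98), *dpy-7* (0.98) and *elt-1* (0.26) were higher on *his-3* RNAi. All 6 vitellogenin genes, which are switched on in the intestine towards adulthood, were lower on both treatments, with sums of 7108 to 9087 on *cco-1* RNAi and 24000 to 26500 on *his-3* RNAi, against 82050 to 95700 on EV. Of 8 molting genes, 4 were higher and 4 lower on *cco-1* RNAi, among them *noah-1* (1.39) and *mlt-10* (-3.86), which had 986 ± 314 normalized counts on *cco-1* RNAi against 14300 ± 120 on EV, and 4 were higher and 1, *mlt-8* (-0.36), was lower on *his-3* RNAi. All 11 sperm genes were lower on *cco-1* RNAi (median -0.45), with 1 higher and 2 lower on *his-3* RNAi, where all 11 were higher with intestine scaling. Of 9 germline markers, 1 was higher and 5 lower on *cco-1* RNAi, and 3 were higher and 4 lower on *his-3* RNAi, where all 9 were higher with intestine scaling. *glh-1* was lower on both under TMM (-0.50 and -0.44). The part of these marker changes in the results of the 8 genes was not tested.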

How the data were processed

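Per the labels and the study's methods, the authors aligned the reads with STAR 2.5.3a to WBcel235 and assigned them to genes with HTSeq. The deposited table holds whole-number counts of 46739 genes in 9 libraries, neither normalized nor filtered. The 5 HTSeq summary lines were left out. The groups were taken from the labels. The 16817 genes that passed the filter on low counts (above 5 reads, in over 3 libraries) were fitted in 1 model of 3 group means in edgeR 4.0.16 (R 4.3.3), with TMM scaling, the quasi-likelihood F test, Benjamini-Hochberg adjustment and a prior count of 0.125. The biological coefficient of variation was 4.92%, so that the replicate spread, and not counting error, limits the precision of genes with many reads. The methods name limma, and limma-voom (limma 3.58.1) and DESeq2 1.42.0 were alternatives, with other scalings, filters and thresholds, a replicate block and leaving out each library. Exon lengths and positions came from a later Ensembl annotation of the same assembly. The procedure was tested on simulated counts, where genes with few reads were recovered less often. The bar for passing that test was lowered after its results were seen. The members and lists were chosen with earlier results of these data known. Named are the members, of each list the 4 genes with the lowest p in either comparison with EV and any that a small count refers to, and the 3 genes with the profile nearest to each member. Not all of these are printed. Genome sequence was not used here, so planned searches for promoter motifs and C-terminal targeting signals were not run.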

Additional observations from a re-analysis of the deposited data

How the results depend on the processing

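Of 138 alternative counts of genes or members called, 129 stayed within 1.5 times, and of 552 alternative log2 fold changes of members 499 kept direction and call. Part of this was fixed in advance. Settings that changed only a threshold reused the main log2 fold changes, so direction could not turn there. Some of the libraries left out belonged to the group that a comparison does not use. With the log2 fold change threshold of 2, 1836 genes and 1 member passed on *cco-1* RNAi, 664 and 1 on *his-3* RNAi, and 1525 and 0 between the treatments. Scaling decided more. With intestine scaling, chosen after seeing the data, 8 members were called on *cco-1* RNAi (1 higher, 7 lower), and on *his-3* RNAi 14812 genes and 5 members (1 higher, 4 lower). The sign turned for *acox-3* (0.31) and *dhs-28* (0.0048) on *his-3* RNAi, and between the treatments for *acox-1.1* (-0.15), *acox-3* (-0.71), *dhs-28* (-0.37) and *daf-22* (-0.78). The 4 members not called on *cco-1* RNAi had values near 0 whose sign turned easily. With *act-1* and *pmp-3* it turned for *acox-1.1* (0.16, called), *acox-1.3* (0.083), *acox-3* (0.047) and *dhs-28* (0.083), with upper quartile factors and with library size only for *acox-1.1* (0.08 and 0.087), *acox-1.3* (0.003 and 0.0092) and *dhs-28* (0.005 and 0.012), and with DESeq2 and its size factors for *acox-1.1* (0.0059 in each). Between the treatments, *acox-3* (0.11 in each) and *daf-22* (0.046 and 0.045) lost their call with library size only and with *act-1* and *pmp-3*. Intestine scaling moved the median of all genes to -0.27 on *cco-1* RNAi, 0.68 on *his-3* RNAi and -0.99 between them, beside member medians of -0.38, -0.14 and -0.26. With *act-1* and *pmp-3* the medians of all genes were 0.17, 0.31 and -0.17, and those of the members 0.06, -0.51 and 0.56. With library size only they were 0.10, 0.24 and -0.17, and -0.01, -0.58 and 0.56. On *his-3* RNAi, 49.1% of called genes were higher with TMM, 60.7% with upper quartile factors, 77.2% with library size only, 83.8% with *act-1* and *pmp-3* and 95.3% with intestine scaling. On *cco-1* RNAi the share was 49.3% with TMM, 62.3% with *act-1* and *pmp-3* and 27.0% with intestine scaling, and between the treatments 46.4% with TMM, 35.1% with library size only, 34.7% with *act-1* and *pmp-3* and 6.63% with intestine scaling. The cause of these shifts was not tested.

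Leaving out each library in turn gave 11178 to 12223 genes and 4 to 6 members on *cco-1* RNAi (*acox-1.1* at -0.026 to 0.021), 8223 to 9196 genes and 8 members on *his-3* RNAi, and 10899 to 11465 genes and 8 members between the treatments. No shared deviation was found between same-numbered libraries of different groups (correlations of -0.019 to 0.045 over 15946 genes). They were therefore not treated as pairs, though such correlations cannot show that they were grown or prepared apart. With the replicate block, 11898, 9174 and 11488 genes and 4, 8 and 8 members were called. The lowest normalized count of a member in any library was 90.64 (*acox-1.3*), while 6 of 9 receptor genes had too few reads to be tested.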
